A study of Drosophila melanogaster with 18 samples.

Results

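The genes described here encode the aminoacyl-tRNA synthetases of Drosophila melanogaster, measured by RNA sequencing in cultured DL1 cells with and without copper and with an inducible transgene for IntS6 or IntS12. They were chosen by symbol: an amino acid name followed by RS, with the ending -m for the mitochondrial enzymes. The rule found 35 of the 17753 genes in the deposited table. Of these, 15 have the ending and are called mitochondrial here, and the 20 without it are called cytosolic. Glutamine, glycine, histidine, lysine and threonine have no gene with that ending. Whether genes without it also serve the mitochondrion was not examined, so every split by compartment follows the symbols alone. All 35 passed the filter on low counts.

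Synthetases attach each amino acid to its matching tRNA and so supply both the cytosolic and the mitochondrial ribosome. Nuclear genes encode all of them, and for most amino acids separate genes serve the cytosol and the mitochondrion. They fall into class I and class II, which differ in the fold of the catalytic domain. In animals several cytosolic synthetases assemble into a multi-synthetase complex held together by the scaffold proteins AIMP1, AIMP2 and AIMP3. In mammals many cytosolic synthetase genes are transcriptional targets of ATF4, the factor induced when kinases such as GCN2 phosphorylate eIF2alpha, and crc encodes the fly ATF4.

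The study asked what overexpression of IntS6 or IntS12, subunits of the Integrator complex that cleaves nascent transcripts, does to the transcriptome. DL1 is a Drosophila cell line. Parental DL1 cells were compared with DL1 cells transfected with a plasmid for FLAG-tagged IntS6 and with DL1 cells transfected with one for FLAG-tagged IntS12. Both transgenes stand behind the metallothionein promoter pMtnA, which copper switches on, and both lines are puromycin-selected populations rather than single clones. Each kind of cell was grown for 3 d without copper or with 500 µM copper sulfate in the last 24 h, which gave 6 groups of 3 libraries, named A, B and C. The genotype label calls the lines without copper WT, like the parental cells, although they carry the transgene. The series calls the replicates biological, but no label ties them to separate cultures, and the p-values here therefore reflect only how much these libraries vary, which may be technical.

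Total counts ran from 13217764 to 18214756 per library, and 3.69 to 4.94 M of them fell on genes other than rRNA. Within these, the 35 synthetase genes together held 21439 to 38878 counts per library. As a check of the labels, IntS6 reached 2326, 2557 and 2215 CPM (counts scaled to library size) in the IntS6 line with copper and at most 75.5 CPM in any library of another group. IntS12 reached 94.6, 88.4 and 95.6 CPM in the IntS12 line with copper and at most 9.69 CPM elsewhere. Plasmatocyte (blood cell) markers, 12 of 13 of them passing the filter, summed to 442.6 to 708.3 CPM, in parental cells a large part of it from Ppn. Markers of muscle stayed at or under 0.267 CPM, with up and wupA at 0 in every library. Neuronal markers summed to 14.3 to 24.0 CPM, nearly all of it from elav, 27.9% of whose exon bases overlap other genes on the same strand. Those of crystal cells and lamellocytes summed to 3.19 to 11.5 CPM, nearly all of it from PPO3. Ovary and germ line markers summed to 50.1 to 172.2 CPM, above the muscle, neuronal and crystal cell lists, in parental cells nearly all of it from tj. In bulk RNA, fewer cells of a type and less RNA per cell cannot be told apart.

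Levels were compared between genes as CPM per kilobase of exon in parental cells without copper. Cytosolic synthetases ran from 8.1 to 88.5 CPM per kb, with a median of 20.7, and mitochondrial ones from 0.912 to 13.2, with a median of 2.56. AsnRS, the asparagine enzyme, stood highest at 88.5 ± 18.6 CPM per kb (SD, n = 3) and ThrRS, the threonine enzyme, next at 76.9 ± 9.14. Their libraries overlapped, and library C held the lowest value of both. IleRS (40.3 ± 1.69) and LysRS (39.1 ± 1.52) followed, overlapping each other and lying apart from ThrRS and from the next gene, AlaRS (27.7 ± 1.1). HisRS was the lowest of the cytosolic genes at 8.1 ± 0.378 CPM per kb. Down the whole order 25 of 34 pairs of neighbours overlapped and 9 did not. ThrRS alone made up 15.2% of all cytosolic synthetase CPM, AsnRS 14.3% and IleRS 10.7%.

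**Figure D1:**
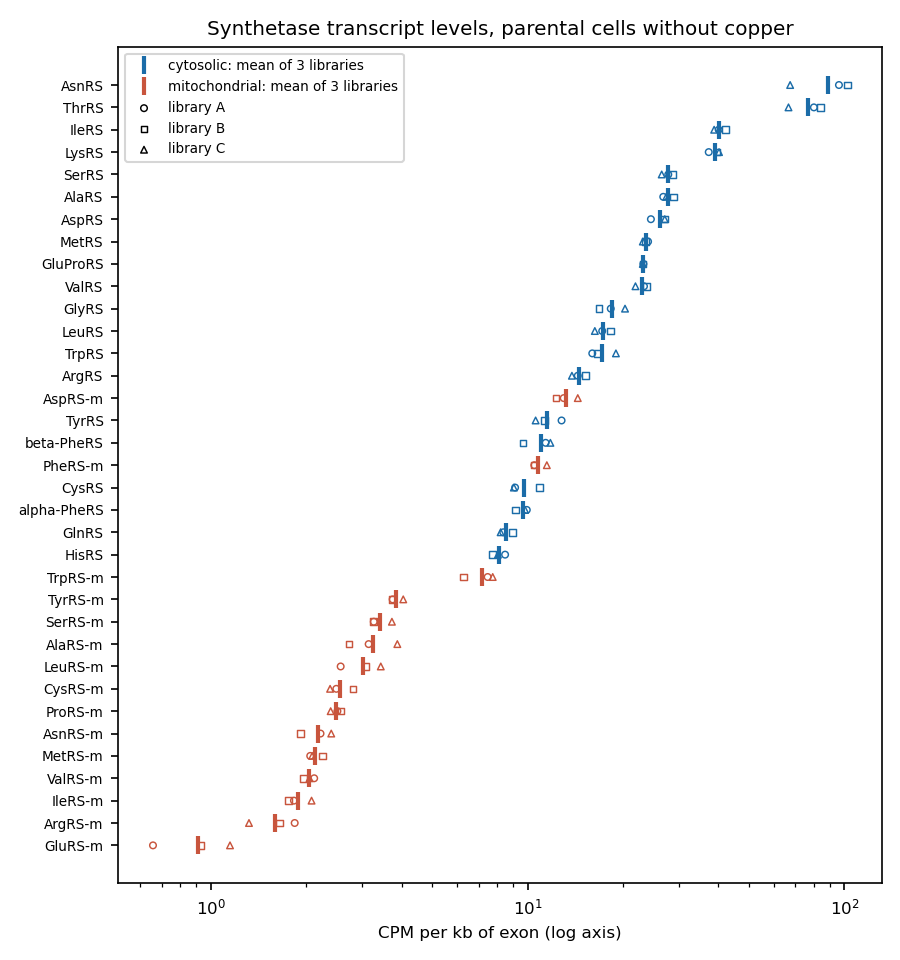
CPM per kb of exon (log axis) of the 35 synthetase genes in the 3 libraries of parental cells without copper; open symbols are libraries A, B and C, upright bars are their mean, blue marks cytosolic and red mitochondrial genes. AspRS-m at 13.2 and PheRS-m at 10.8 CPM per kb lie within the cytosolic range of 8.1 to 88.5, and the other mitochondrial genes lie under it.

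Among mitochondrial synthetases AspRS-m (13.2 ± 1.03 CPM per kb), PheRS-m (10.8 ± 0.578) and TrpRS-m (7.17 ± 0.795) were the highest and GluRS-m (0.912 ± 0.248) the lowest. GluRS-m charges mitochondrial glutamate tRNA, and its 3 libraries ranged from 1.12 to 1.96 CPM. In all 12 pairs whose symbols differ only by the ending -m, the cytosolic level exceeded the mitochondrial one. The excess ran from 1.98-fold for AspRS over AspRS-m and 2.4-fold for TrpRS over TrpRS-m to 40.6-fold for AsnRS over AsnRS-m. Phenylalanine, glutamate and proline have differently named genes and were not among these pairs. PheRS-m lay above alpha-PheRS (9.64 ± 0.412 CPM per kb) and overlapped beta-PheRS (11.0 ± 1.14). GluProRS, at 23.1 CPM per kb, lay above GluRS-m and ProRS-m (2.49). The genes are spread over the genome of BDGP6.54, with 6 on 2L, 8 on 2R, 10 on 3L, 7 on 3R and 4 on X. GluRS-m and TyrRS are the closest neighbours, on the minus strand of 3L with 171 bases between them.

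With copper, many cytosolic synthetases were called higher in parental cells, and no mitochondrial one was. SerRS and AspRS more than doubled their transcript level, and TrpRS, AlaRS, GlyRS and ValRS rose at least 1.5-fold. The mitochondrial TrpRS-m fell 1.73-fold, while IleRS and MetRS, the enzymes for isoleucine and methionine, fell by less. Calls were made with edgeR's quasi-likelihood test, at an adjusted p (Benjamini-Hochberg, over all 8174 genes tested) under 0.05. By that rule 12 of 35 synthetases were higher and 3 lower, where 19.3% of all genes were higher and 19.4% lower, 38.6% in all. All 12 called higher were cytosolic (12 of 20), and 0 of the 15 mitochondrial genes were. Most mitochondrial genes had fewer counts, and with fewer counts a change of a given size is harder to call. CysRS-m, with a log2 fold change of 0.34, was not called, while TyrRS, with 0.30, was. The part of count depth in this split was not tested. With the replicate letter as a block 1 mitochondrial gene, PheRS-m, was also called higher (adjusted p = 0.0493), which made 16 calls. Counted instead by groups whose 3 libraries did not overlap, 13 of 35 were higher and 5 lower, where 22.6% of all genes were higher and 21.4% lower, 44.1% in all. By this count 10 of the 13 higher genes were cytosolic and 3 were mitochondrial, namely CysRS-m, PheRS-m and ProRS-m. The median log2 fold change was 0.29 over the cytosolic and -0.09 over the mitochondrial genes, against 0.00 over all genes tested.

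**Figure D2:**
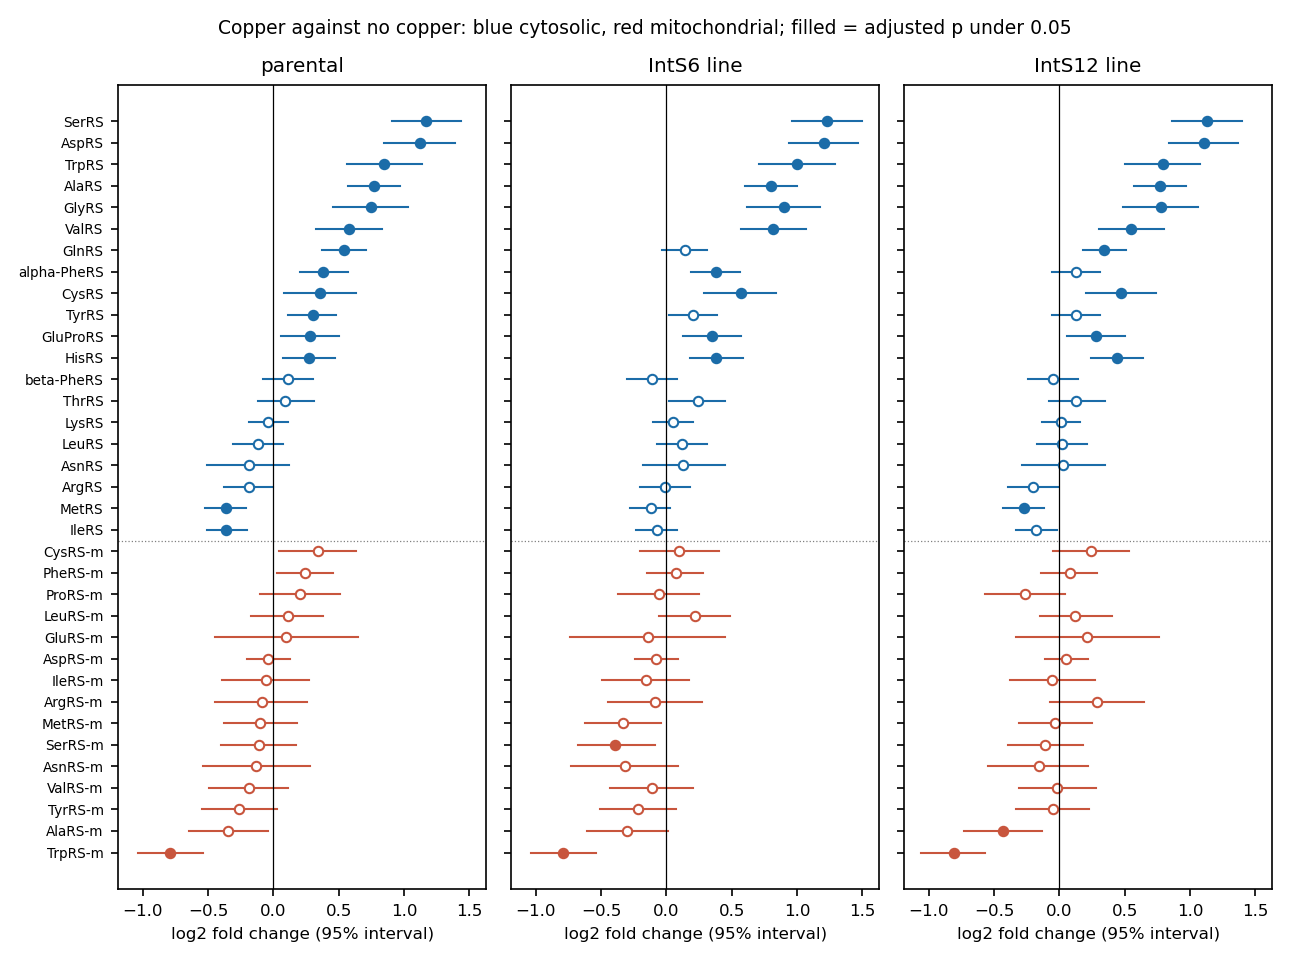
Log2 fold change with copper (95% interval) of each synthetase in the 3 kinds of cell, 1 panel each, ordered within each compartment by the parental value; blue is cytosolic, red mitochondrial, and filled points have an adjusted p under 0.05. SerRS and AspRS lie above 1 in each panel and TrpRS-m at -0.79, -0.79 and -0.81.

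SerRS (FBgn0031497; chromosome 2L, 3035493 to 3037403, minus strand), the serine enzyme, stood at 53.1, 54.8 and 50.7 CPM in parental libraries A, B and C without copper and at 94.9, 141.5 and 121.3 CPM with copper. In the IntS6 line it stood at 47.2, 54.7 and 51.4 CPM without and 94.0, 138.9 and 127.0 CPM with copper, and in the IntS12 line at 54.4, 53.5 and 52.8 CPM without and 103.2, 116.3 and 132.4 CPM with copper. Every copper library lay above every library without copper. The log2 fold change was 1.17 ± 0.13 (standard error, n = 3 per group) in parental cells (2.26-fold, edgeR adjusted p = 3.23e-07), 1.23 ± 0.13 in the IntS6 line (2.34-fold, adjusted p = 1.17e-07) and 1.13 ± 0.13 in the IntS12 line (2.19-fold, adjusted p = 5.5e-07).

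AspRS (FBgn0002069; 2R, 12877004 to 12883168, plus strand), the aspartate enzyme and in mammals a member of the multi-synthetase complex, stood at 55.6, 61.1 and 61.5 CPM in parental cells without and 104.3, 156.6 and 125.3 CPM with copper. The IntS6 line held 60.8, 59.7 and 58.8 CPM without and 116.9, 154.7 and 142.8 CPM with copper, and the IntS12 line 64.0, 57.6 and 58.6 against 103.7, 140.7 and 144.8 CPM. The groups did not overlap in any of the 3 kinds of cell. Its log2 fold changes were 1.12 ± 0.13, 1.21 ± 0.13 and 1.11 ± 0.13 (edgeR adjusted p = 5.76e-07, 1.29e-07 and 6.36e-07). On the other strand Nmda1 and an antisense RNA (at most 3 counts in any group) cover 69.5% of the AspRS exon bases. On the same strand asRNA:CR43468 shares 6.8% of them and held 54 to 78 counts per group of 3 libraries. Nmda1 itself moved from 49.1 ± 4.42 to 76.0 ± 12.9 CPM with copper in parental cells, from 49.8 ± 3.85 to 75.1 ± 2.92 in the IntS6 line and from 48.4 ± 2.26 to 72.8 ± 4.43 in the IntS12 line. The libraries are strand-specific per the labels' protocols, and the sources used here do not give the strand setting of the counting. The part of Nmda1 and asRNA:CR43468 reads in the AspRS result was not tested.

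TrpRS (FBgn0010803; 3R, 9265027 to 9266904, minus strand) charges cytosolic tryptophan tRNA. It stood at 26.9, 27.9 and 32.0 CPM in parental cells without and 44.6, 64.0 and 47.1 CPM with copper. In the IntS6 line the values were 31.9, 29.0 and 30.0 against 53.0, 67.9 and 61.6 CPM, and in the IntS12 line 31.0, 30.3 and 27.6 against 38.6, 58.2 and 57.7 CPM. No copper library overlapped those without copper, and library A was the lowest of the copper libraries each time. TrpRS rose by 0.85 ± 0.14, 1.00 ± 0.14 and 0.79 ± 0.14 on the log2 scale (edgeR adjusted p = 5.79e-05, 5e-06 and 0.00012).

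TrpRS-m (FBgn0036763; 3L, 17849727 to 17852453, plus strand), its mitochondrial counterpart, went the other way. Its parental libraries held 18.5, 15.5 and 19.2 CPM without and 11.4, 10.3 and 9.00 CPM with copper. The IntS6 line held 17.4, 16.8 and 19.0 against 11.6, 9.61 and 9.46 CPM, and the IntS12 line 20.4, 17.2 and 17.9 against 11.8, 10.5 and 9.27 CPM. All 9 copper libraries lay under all 9 libraries without copper. TrpRS-m fell by 0.79 ± 0.12, 0.79 ± 0.12 and 0.81 ± 0.12 on the log2 scale (edgeR adjusted p = 2.07e-05, 1.45e-05 and 1.29e-05). The ratio of TrpRS to TrpRS-m CPM thereby moved from 1.64 ± 0.173 to 5.12 ± 1.17 in parental cells, from 1.71 ± 0.128 to 6.04 ± 1.32 in the IntS6 line and from 1.61 ± 0.133 to 5.01 ± 1.55 in the IntS12 line.

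**Figure D3:**
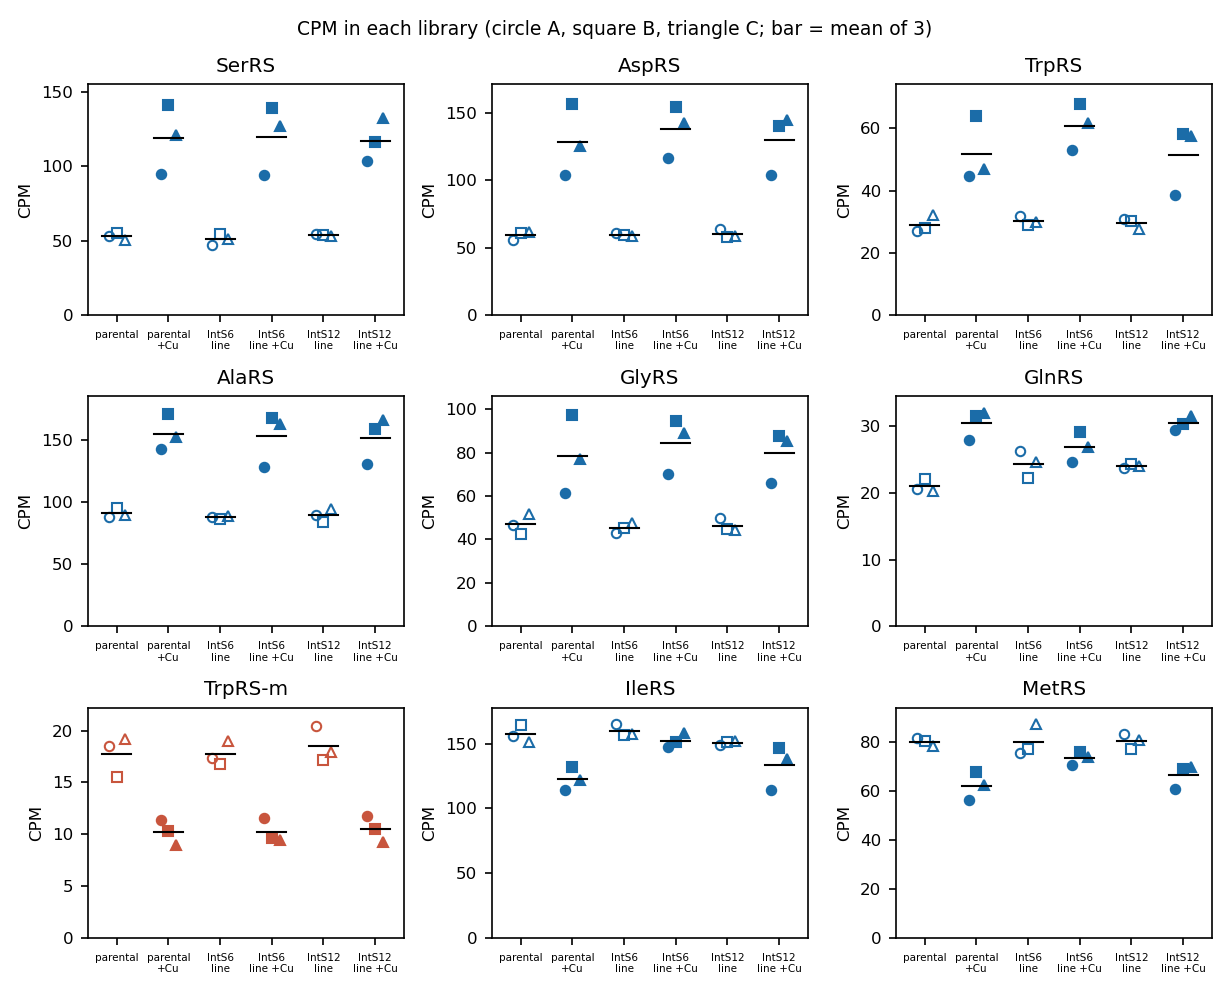
CPM of 9 synthetases in each of the 18 libraries; circles, squares and triangles are libraries A, B and C, filled symbols are copper libraries, and bars are the mean of 3. SerRS, AspRS, TrpRS, AlaRS and GlyRS are higher in every copper library of each kind of cell, TrpRS-m is lower, and IleRS with copper spans 114.2 to 132 CPM in parental cells and 147.3 to 158.2 in the IntS6 line.

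AlaRS (FBgn0027094; 2L, 8378262 to 8381764, minus strand), the alanine enzyme, stood at 88.0, 95 and 90.0 CPM in parental cells without and 142.6, 170.7 and 152.6 CPM with copper. It held 88.3, 86.8 and 89.0 against 128.2, 168.1 and 163.4 CPM in the IntS6 line and 90.1, 83.8 and 94.2 against 130.8, 158.8 and 166.6 CPM in the IntS12 line. The groups did not overlap, and AlaRS rose 1.71-fold, 1.74-fold and 1.7-fold (edgeR adjusted p = 1.63e-06, 7.11e-07 and 1.87e-06). GlyRS (FBgn0027088; 3L, 15095142 to 15097686, plus strand), the glycine enzyme, stood at 46.6, 42.7 and 51.6 CPM in parental cells without and 61.3, 97.3 and 77.0 CPM with copper. Its values were 42.9, 45.4 and 47.4 against 70.1, 94.6 and 88.8 CPM in the IntS6 line and 49.9, 44.8 and 44.4 against 65.8, 87.6 and 85.4 CPM in the IntS12 line. GlyRS copper libraries spread more than those without copper (coefficient of variation 23% against 9.48% in parental cells) and still lay above all of them. GlyRS rose 1.68-fold, 1.86-fold and 1.71-fold (edgeR adjusted p = 0.000165, 1.46e-05 and 0.00011).

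ValRS (FBgn0027079; 2R, 13198850 to 13202709, plus strand), the valine enzyme, stood at 79.6, 80.7 and 74.6 CPM in parental cells without and 97.1, 134.5 and 119.6 CPM with copper. In the IntS6 line it held 95.9, 77.1 and 75.1 against 129.1, 158.0 and 152.0 CPM and in the IntS12 line 84.0, 73.9 and 82.4 against 95.8, 134.4 and 122.8 CPM. The groups did not overlap, and ValRS rose 1.5-fold, 1.77-fold and 1.47-fold (edgeR adjusted p = 0.000623, 9.32e-06 and 0.000987). GlnRS (FBgn0027090; 3R, 25263267 to 25265721, minus strand), the glutamine enzyme, stood at 20.6, 22.0 and 20.2 CPM in parental cells without and 27.9, 31.4 and 31.9 CPM with copper, a rise of 1.45-fold (edgeR adjusted p = 2.15e-05). In the IntS12 line GlnRS went from 23.7, 24.3 and 23.9 to 29.3, 30.3 and 31.5 CPM, a rise of 1.27-fold (edgeR adjusted p = 0.00189). In the IntS6 line GlnRS held 26.2, 22.2 and 24.6 CPM without and 24.6, 29.1 and 26.8 CPM with copper, where the groups overlapped and no call was made (log2 fold change 0.14, 95% interval -0.03 to 0.31).

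The other cytosolic genes called higher in parental cells rose by less. They were alpha-PheRS (1.3-fold), a subunit of the phenylalanine enzyme, CysRS (1.28-fold), TyrRS (1.23-fold), GluProRS (1.21-fold), which charges both glutamate and proline tRNA, and HisRS (1.2-fold), with edgeR adjusted p-values from 0.00179 for alpha-PheRS to 0.0411 for GluProRS. Libraries with and without copper overlapped for CysRS and HisRS. CysRS, TyrRS, GluProRS and HisRS each lost the call when any of several single parental libraries was left out, with adjusted p-values up to 0.19, 0.0627, 0.302 and 0.221. Without parental copper library B all 4 lost it, and so they did without parental library C of the cells that had no copper. With only the groups compared GluProRS (0.0718), HisRS (0.0819) and TyrRS (0.0517) lost it as well. HisRS shares 8.9% of its exon bases with Bx on the same strand, and Bx stood at 11.2 ± 1.77 CPM without and 9.02 ± 0.684 CPM with copper. An antisense RNA covers 16.6% of GluProRS and held at most 4 counts in any group of 3 libraries.

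IleRS (FBgn0027086; 3L, 22288665 to 22292810, plus strand) and MetRS (FBgn0034401; 2R, 18846858 to 18850599, minus strand) were the cytosolic synthetases that fell in parental cells. IleRS went from 156.3, 164.3 and 151.2 CPM to 114.2, 132.0 and 121.7 CPM, without overlap, and fell by 0.36 ± 0.08 on the log2 scale (edgeR adjusted p = 0.000679). MetRS went from 81.8, 80.4 and 78.5 CPM to 56.5, 67.8 and 62.4 CPM, also without overlap, and fell by 0.36 ± 0.08 (edgeR adjusted p = 0.000586). In the IntS12 line MetRS went from 83.2, 77.1 and 80.9 to 60.8, 69.2 and 69.8 CPM and fell by 0.27 ± 0.07 (edgeR adjusted p = 0.00657), a call lost without the replicate A libraries (0.101). IleRS was not called in the IntS12 line (log2 fold change -0.18). It was called lower there without rRNA genes (edgeR adjusted p = 0.0438), with the replicate block (0.0375) and without IntS12 copper library B (0.0201). In the IntS6 line neither gene was called, with log2 fold changes of -0.07 for IleRS (95% interval -0.23 to 0.08) and -0.12 for MetRS (-0.28 to 0.03).

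ThrRS, AsnRS, LysRS, LeuRS, ArgRS and beta-PheRS were not called in parental cells, which does not show that they stayed level. Their intervals ran from -0.51 to 0.12 for AsnRS, the widest, and from -0.19 to 0.11 for LysRS, the narrowest. AsnRS libraries had a coefficient of variation of 21% without and 25.9% with copper, the highest among cytosolic genes in either group. Without parental copper library B, which held 238.3 CPM against 160.1 in A and 152.3 in C, AsnRS was called lower (log2 fold change -0.43, adjusted p = 0.0293). ThrRS in the IntS6 line stood at 220.6, 222.4 and 222.6 CPM without and 227.7, 287.2 and 271.1 CPM with copper, without overlap (log2 fold change 0.24, 95% interval 0.02 to 0.45, adjusted p = 0.0681). It was called higher there with library sizes alone (0.0394), without a filter on low counts (0.0238) and with only the groups compared (0.0186). The same held with the replicate block (0.0467), without IntS6 copper library A (0.0214) and without all replicate A libraries (0.0459).

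The cytosolic genes were also grouped by class and by complex. GluProRS holds a domain of each class and was left out of the class counts. Of 9 cytosolic class I genes 5 rose and 2 fell, and of 10 class II genes 6 rose and 0 fell, beside 19.3% higher and 19.4% lower among all genes. Among the 8 cytosolic genes whose mammalian counterparts sit in the multi-synthetase complex (ArgRS, AspRS, GlnRS, GluProRS, IleRS, LeuRS, LysRS, MetRS), 3 rose and 2 fell, with a median log2 fold change of -0.08. Among the other 12 cytosolic genes 9 rose and 0 fell, with a median of 0.37. The same split in the lines gave 2 higher and 0 lower of 8 against 8 higher and 0 lower of 12 with copper in the IntS6 line, and 3 higher and 1 lower of 8 against 7 higher and 0 lower of 12 in the IntS12 line. Among all genes 23.2% were higher and 19.3% lower in the IntS6 line, and 19.2% and 17.6% in the IntS12 line. The difference between these groups of genes was not tested.

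The copper response of the transgene lines used libraries that the parental comparison does not share. In the IntS6 line 10 of 35 synthetases were higher and 2 lower with copper, where 23.2% of all genes were higher, 19.3% lower and 42.6% called in all. In the IntS12 line 10 were higher and 3 lower, beside 19.2%, 17.6% and 36.8% of all genes. Called higher in all 3 kinds of cell were AlaRS, AspRS, CysRS, GluProRS, GlyRS, HisRS, SerRS, TrpRS and ValRS, 9 of 35, where 13.7% of all genes were. TrpRS-m was the only one called lower in all 3, where 12.4% of all genes were. In the IntS6 line GluProRS lost its call without copper library B (edgeR adjusted p = 0.0501) or C (0.0571). In the IntS12 line it lost the call without any of 5 single libraries (up to 0.189), and CysRS without copper library C (0.0555). Across the 35 genes the log2 fold changes correlated at Pearson's r of 0.92 to 0.93 between kinds of cell (all genes 0.82 to 0.89), a description over genes that share libraries and are not independent replicates. The 20 cytosolic genes alone gave 0.93 to 0.97 and the 15 mitochondrial genes 0.77 to 0.86.

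Among mitochondrial synthetases other than TrpRS-m, SerRS-m fell in the IntS6 line and AlaRS-m in the IntS12 line. SerRS-m went from 9.18, 8.98 and 8.22 to 7.19, 6.34 and 6.58 CPM and fell by 0.39 ± 0.14 on the log2 scale (edgeR adjusted p = 0.0305), a call lost with DESeq2 (0.0684), with library sizes alone (0.0613) and without any of 4 single libraries (up to 0.0922). AlaRS-m went from 12.4, 11.2 and 9.76 to 9.50, 7.92 and 7.38 CPM and fell by 0.43 ± 0.15 (edgeR adjusted p = 0.0245), a call lost without any of 4 single libraries (up to 0.12). In parental cells AlaRS-m had a log2 fold change of -0.35 (95% interval -0.65 to -0.04, adjusted p = 0.0673). At the other end CysRS-m had 0.34 (0.04 to 0.63, adjusted p = 0.0635) and PheRS-m 0.24 (0.03 to 0.46, adjusted p = 0.0686). Both had every copper library above every library without copper, as did ProRS-m (0.20, -0.10 to 0.51, adjusted p = 0.304). The least abundant gene, GluRS-m, had the widest interval, -0.45 to 0.65.

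Summed over the cytosolic genes, CPM went from 1468 ± 82.1 to 1744 ± 245.7 with copper in parental cells, from 1464 ± 16.7 to 1926 ± 214.2 in the IntS6 line and from 1451 ± 62.3 to 1785 ± 199.3 in the IntS12 line. The parental sums overlapped, since copper library A held 1521 CPM and library B without copper 1538 CPM. Summed mitochondrial CPM went from 166.8 ± 10.4 to 157.2 ± 5.56, from 160.6 ± 3.08 to 144.2 ± 8.26 and from 165.1 ± 5.38 to 157.7 ± 5.46. These sums overlapped in parental cells (163.7 CPM in copper library B, 158.2 CPM in library B without copper). They also overlapped in the IntS12 line (161.8 CPM in copper library A, 159.1 CPM in library B without copper), but not in the IntS6 line. TrpRS-m alone went from a mean of 17.8 to 10.2 CPM in parental cells, from 17.8 to 10.2 in the IntS6 line and from 18.5 to 10.5 in the IntS12 line. The ratio of the sums moved from 8.84 ± 1.02 to 11.1 ± 1.19, from 9.12 ± 0.123 to 13.3 ± 0.805 and from 8.79 ± 0.135 to 11.4 ± 1.58, with every copper library above every library without copper in each kind of cell. Log2 fold changes were also compared within the 12 pairs whose symbols differ only by -m. The cytosolic gene had the higher value in 7 pairs in parental cells, 11 in the IntS6 line and 8 in the IntS12 line. The same 7 pairs did so in all 3.

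**Figure D4:**
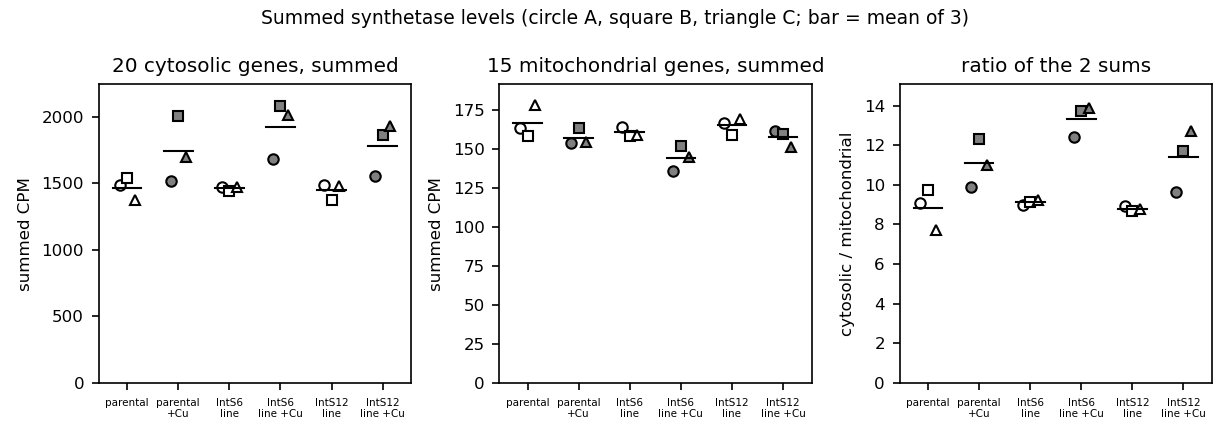
Summed CPM of the 20 cytosolic and the 15 mitochondrial synthetases and the ratio of these sums in each library; circles, squares and triangles are libraries A, B and C, filled symbols are copper libraries, and bars are the mean of 3. The ratio lies between 7.72 and 9.72 without copper and between 9.63 and 13.9 with copper.

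Of the 12 genes that rose in parental cells, copper library A held the lowest value for 10 in parental cells, for 12 in the IntS6 line and for 12 in the IntS12 line. Over all genes tested, copper library A was the lowest for 30.9%, 34.5% and 36.1%. With the 6 libraries of replicate A left out together, an alternative chosen after these values were seen, the parental count stayed at 15, with the same genes, and the counts in the IntS6 and IntS12 lines were 13 and 11. Some marker sums also moved with copper. The plasmatocyte sum was 531.3 to 666.0 CPM without and 442.6 to 515.9 CPM with copper in parental cells, and 602.3 to 660.3 and 571.7 to 708.3 CPM in the IntS6 line. Within that list 3 genes fell in parental cells (Ppn, from a mean of 303.2 to 171.0 CPM, srp and eater) and 5 rose (He, from 47.6 to 66.2 CPM, crq, drpr, Pxn and NimC1). PPO3 rose in all 3 kinds of cell, from 4.05 to 7.74 CPM in parental cells. The ovary and germ line sum in parental cells, nearly all of it from tj, was 149.8 to 164.4 CPM without and 50.1 to 90.3 CPM with copper. The part of these markers in the synthetase results was not tested.

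Induced IntS6 was compared with parental cells that had received the same copper. IleRS was the only synthetase called, 1 of 35, where 7.45% of all genes were higher, 1.46% lower and 8.91% called in all. IleRS stood at 147.3, 150.9 and 158.2 CPM in the IntS6 line and 114.2, 132.0 and 121.7 CPM in parental cells, without overlap, a rise of 0.31 ± 0.08 on the log2 scale (1.24-fold, edgeR adjusted p = 0.00955). The call was lost without parental copper library A (0.0702), without IntS6 copper library C (0.0612) and without all replicate A libraries (0.0587). MetRS lay just outside the threshold, at 70.8, 75.8 and 74.0 CPM against 56.5, 67.8 and 62.4 CPM (log2 fold change 0.24 ± 0.08, adjusted p = 0.0518). It passed with the replicate letter as a block (adjusted p = 0.0311), which made 2 calls. Without parental copper library B, 5 synthetases were higher and 1 lower: IleRS, MetRS, ValRS, LeuRS and AsnRS against beta-PheRS.

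**Figure D5:**
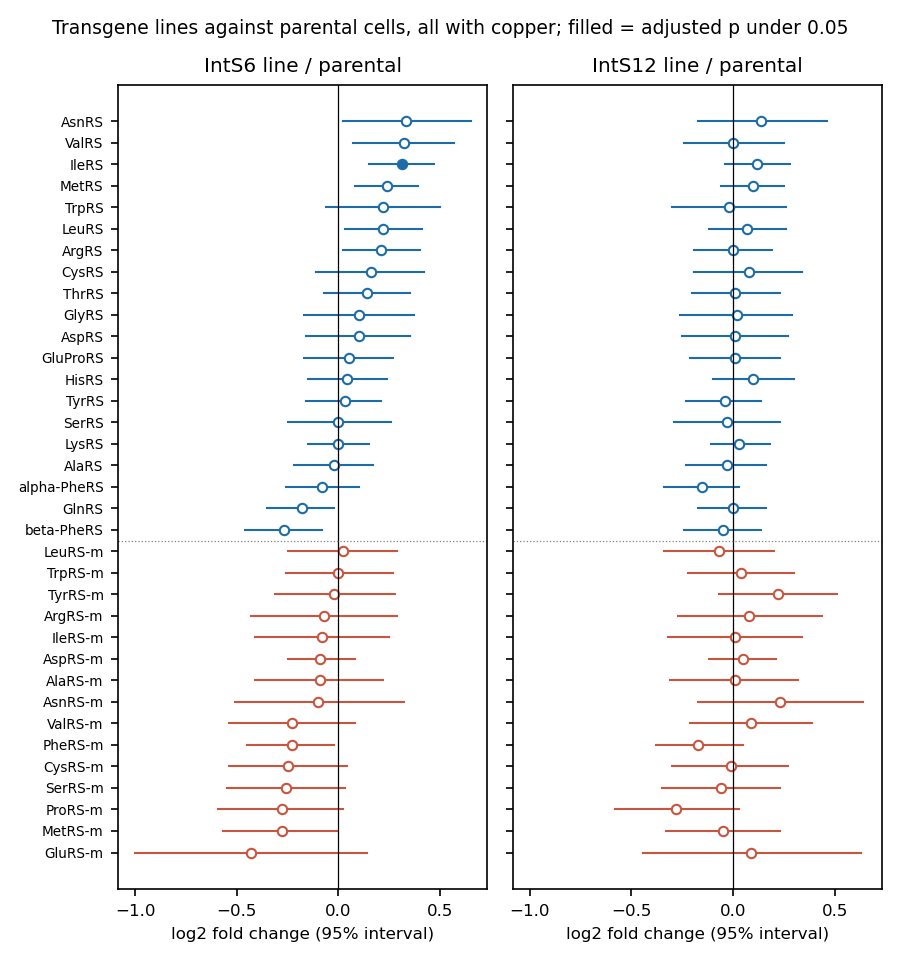
Log2 fold change (95% interval) of each synthetase in the IntS6 line and in the IntS12 line against parental cells, all with copper, ordered by the IntS6 value within each compartment; blue is cytosolic, red mitochondrial, and the filled point has an adjusted p under 0.05. IleRS in the IntS6 line, at 0.31, is the single filled point.

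Over the IntS6 comparison the median log2 fold change was 0.10 for the cytosolic and -0.10 for the mitochondrial genes, against -0.01 over all genes tested. Of the 15 mitochondrial genes 13 had a negative value, where 4201 of 8174 genes did, down to -0.43 for GluRS-m (95% interval -1.0 to 0.14), and none was called. An unadjusted p under 0.05 was reached by 9 of 35 synthetases with edgeR, where 21.3% of all genes reached it, and by 6 with DESeq2, where 11.7% did. Without copper, 11 of the 15 mitochondrial genes had a negative value in the IntS6 line against parental cells, where 4229 of 8174 genes did. The difference in copper response from parental cells was negative for 9 of the 15, where 4064 of 8174 genes were. The copper response of the IntS6 line differed from that of parental cells for 0 of 35 synthetases by the interaction term, where 1.16% of all genes did (3 synthetases at an unadjusted p under 0.05 with edgeR, beside 10.5% of all genes, and 3 with DESeq2, beside 5.39%; intervals between -1.05 and 0.77). GlnRS came nearest, with a response lower by 0.40 ± 0.12 on the log2 scale (95% interval -0.64 to -0.16, adjusted p = 0.109). It was followed by IleRS (0.29 ± 0.11, adjusted p = 0.268) and MetRS (0.24 ± 0.11, adjusted p = 0.394). These comparisons share the parental libraries with the comparison of copper in parental cells, in which IleRS and MetRS fell.

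Induced IntS12 left no synthetase called against copper-treated parental cells, 0 of 35, where 0.0245% of all genes were called. None reached an unadjusted p under 0.05 with edgeR or with DESeq2, which 3.63% and 1.52% of all genes did. Log2 fold changes ran from -0.28 for ProRS-m to 0.23 for AsnRS-m, and the intervals of all 35 lay between -0.58 and 0.64. For cytosolic genes they lay between -0.34 and 0.46. IleRS, called in the IntS6 line, stood at 114.6, 147.0 and 138.3 CPM in the IntS12 line. These values overlapped the parental range and reached almost to the lowest IntS6 copper library, at 147.3 CPM. Set directly against each other, the copper-treated lines differed in 0 of 35 synthetases, where 5.8% of all genes were called (6 at an unadjusted p under 0.05 with edgeR, beside 18.5% of all genes, and 4 with DESeq2, beside 9.66%). IleRS there had a log2 fold change of 0.19 (95% interval 0.04 to 0.35, adjusted p = 0.163) and ValRS 0.31 (0.07 to 0.56, adjusted p = 0.14). The copper response of the IntS12 line differed from that of parental cells for 0 of 35, beside 0.0122% of all genes (1 at an unadjusted p under 0.05 with edgeR, beside 2.13% of all genes, and 0 with DESeq2, beside 0.959%; intervals between -0.90 and 0.89).

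Without copper no synthetase differed by the test between either line and parental cells. The IntS6 line had 0 of 35 synthetases called, where 0.208% of all genes were (2 at an unadjusted p under 0.05 with edgeR, beside 3.91% of all genes, and 1 with DESeq2, beside 1.98%), and the IntS12 line 0 of 35, where 0.0367% were (1 with edgeR, beside 2.61%, and 1 with DESeq2, beside 1.18%). GlnRS had the largest cytosolic log2 fold change in both, 0.22 (95% interval 0.04 to 0.39) and 0.19 (0.02 to 0.37), and in both its libraries lay above those of parental cells. The intervals of all 35 lay between -0.76 and 0.50 in the IntS6 line and between -0.66 and 0.66 in the IntS12 line. Both comparisons share the parental libraries.

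Scaffolds and other partners of the synthetases were looked up as a list. Of 7 partner genes, 0 rose and 1 fell with copper in parental cells, where 19.3% of all genes rose and 19.4% fell. AIMP1, a scaffold of the complex, went from 10.1, 8.58 and 7.98 to 6.96, 7.48 and 5.70 CPM and fell by 0.39 ± 0.14 on the log2 scale (edgeR adjusted p = 0.0289). AIMP1 also fell in the IntS6 line, by 0.47 ± 0.14 (adjusted p = 0.00786), and was not called in the IntS12 line (-0.26, 95% interval -0.53 to 0.02). AIMP2 stood at 13.6, 17.1 and 14.4 CPM without and 14.6, 19.8 and 21.5 CPM with copper in parental cells (adjusted p = 0.0515). AIMP3, the third scaffold, was called higher in the IntS6 line alone (1.18-fold, adjusted p = 0.0435), and its response did not differ from the parental one by the interaction term (adjusted p = 0.731). Slimp, a mitochondrial relative of SerRS in insects without charging activity, stood at 3.22, 3.72 and 4.57 CPM without and 5.26, 4.47 and 4.65 CPM with copper (log2 fold change 0.32, 95% interval -0.09 to 0.73). GatA, GatB and GatC, which convert mischarged mitochondrial glutamine tRNA, had log2 fold changes of -0.23, -0.42 and -0.22 and were not called. All exon bases of GatC overlap another gene on the same strand.

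Genes of the ATF4 and GCN2 pathway were looked up beside the synthetases, from a list chosen with results of these data known. With copper in parental cells 10 of 15 rose and 2 fell, with a median log2 fold change of 0.65, beside 19.3% and 19.4% of all genes and a median of 0.00. PEK, an eIF2alpha kinase of the endoplasmic reticulum, went from 39.6, 37.7 and 34.8 to 70.2, 94.5 and 75.5 CPM (2.15-fold, edgeR adjusted p = 6.84e-08). The TOR inhibitors scyl (3.05-fold, adjusted p = 1.15e-07) and chrb (2.34-fold, adjusted p = 2.25e-06) and the cystathionine enzyme gene Cbs (1.57-fold, adjusted p = 7.15e-06) also rose. AsnS, the asparagine synthetase gene, and Atf3 fell, and are named after their values were seen. The transcript of crc itself stood at 420.7, 428.0 and 390.3 CPM without and 473.7, 485.4 and 394.0 CPM with copper and was not called (adjusted p = 0.146). Other genes cover 73.5% of the crc exon bases on the same strand. With induced IntS6 against copper-treated parental cells 3 of the 15 were higher, beside 7.45% of all genes, namely Sesn (1.87-fold), chrb (1.51-fold) and AsnS (1.19-fold), and with induced IntS12 none was (adjusted p from edgeR). The copper response of the IntS6 line differed from the parental one for 0 of the 15 by the interaction term, beside 1.16% of all genes. The IntS6 comparison shares the copper-treated parental libraries with the copper comparison in which AsnS fell. Sesn shares 65.1% of its exon bases with other genes on its strand.

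Elongation factors and amino acid transporters were looked up as further lists. Of 7 cytosolic elongation factor genes 6 were tested, and with copper in parental cells 0 rose and 2 fell. The shares of all genes, 19.3% higher and 19.4% lower, apply to this and the next 2 lists. Those that fell were eEF1gamma, from 700.4, 722.7 and 717.2 to 609.0, 603.7 and 658.1 CPM (edgeR adjusted p = 0.00743), and eEF1beta, whose libraries overlapped (adjusted p = 0.03). Of 8 mitochondrial translation factor genes 1 rose and 1 fell. mEFTu1, a mitochondrial elongation factor Tu, went from 59.5, 67.2 and 62.2 to 32.8, 36.8 and 48.6 CPM (1.6-fold lower, edgeR adjusted p = 8.29e-05). mRRF1, a mitochondrial ribosome recycling factor, went from 0.263, 0.315 and 0.508 to 0.995, 1.45 and 1.65 CPM (adjusted p = 0.000169). Both were called in the same direction in all 3 kinds of cell. Of 8 amino acid transporter genes 5 were tested, 0 rose and 2 fell with copper in parental cells: path (1.49-fold lower, adjusted p = 0.00586) and JhI-21 (1.33-fold lower, adjusted p = 0.0137). Neither was called lower with copper in the IntS6 or the IntS12 line. In the IntS6 line 1 of the 5 rose with copper, by 3.96 on the log2 scale, where 23.2% of all genes rose. Against parental cells with copper 1 of the 5 was higher in the IntS6 line, beside 7.45% of all genes.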

How the data were processed

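RNA depleted of rRNA was sequenced in strand-specific libraries, per the labels' protocols. The authors deposited 1 table of estimated counts per gene for 18 libraries, with 13.4% of values and 31.4% of the synthetases' values not whole. The submitters' processing notes name Trimmomatic 0.39 (a read trimmer), featureCounts (a read counter) and the builds dm6 and BDGP6. The aligner, strand setting, annotation version and handling of multi-mapped reads are not stated in the sources used here. If shared reads were split, genes that overlap or resemble others can take part of each other's reads. Coordinates and overlaps came from the BDGP6.54 annotation, and 17626 of the 17753 identifiers had a symbol.

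Counts were rounded to whole numbers. All 18 libraries entered 1 fit in edgeR 4.0.16 (R 4.3.3) with a mean per group for 6 groups and TMM scaling. Its default low-count filter left 8174 of 13350 genes with any count. The quasi-likelihood test was adjusted by Benjamini-Hochberg over all genes tested within each of 10 comparisons and called at 0.05. It had 12 residual and 9.62 prior degrees of freedom, with a biological coefficient of variation of 8%. The rRNA genes, 70.2% to 73.4% of counts, stayed in library sizes. CPM use TMM-scaled library sizes; ± beside CPM is an SD and beside log2 fold changes a standard error. The pipeline was tested on simulated data. No replicate pair agreed within counting noise (chi-square per degree of freedom 4.76 to 18.81), so none was merged.

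Same-letter libraries deviated together, with all 3 correlations above 0.1, for parental cells with against without copper (0.12, 0.11 and 0.28). They also did for the IntS6 line against parental cells with copper (0.21, 0.24 and 0.14). The blocked counts of calls and the synthetases that the block added stand beside those results. Standard errors and adjusted p-values of the other genes there are from the fit without the block. Alternatives were DESeq2 1.42.0, library sizes alone, no filter, no rRNA genes, only the groups compared, the replicate block and each library left out. Members and lists were chosen with earlier results of these data known. Full values were given for up to 6 called members per direction with the smallest p, and up to 4 of each other list. Symbols Psat, mEFG2, mtRF1 and nos had no match.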

Additional observations from a re-analysis of the deposited data

How the results depend on the processing

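Of the synthetases called with copper, 11 of 15 in parental cells, 10 of 12 in the IntS6 line and 9 of 13 in the IntS12 line kept their call under every alternative run. AlaRS, AspRS, GlyRS, SerRS, TrpRS, ValRS and TrpRS-m were among those kept in all 3. No synthetase changed direction with its call. Leaving out 1 library at a time gave 11 to 16 calls with copper in parental cells, 10 to 13 in the IntS6 line, 10 to 13 in the IntS12 line and 0 to 6 for the IntS6 line against parental cells with copper, and 0 in the other 6 comparisons. The IntS6 line against parental cells with copper, with 1 call, had 2 with DESeq2, 2 with library sizes alone (MetRS joined in both), 3 without a filter on low counts (ValRS and AsnRS joined), 2 with the replicate block and 0 without the replicate A libraries. The copper-treated lines against each other had 0 calls, and 1 (ValRS) without a filter. With only the groups compared the parental copper count was 12. The replicate block gave 16 calls with copper in parental cells, 13 in the IntS6 line and 14 in the IntS12 line, where the letters were not shown to pair, and 0 in the comparisons with 0. The causes of these changes were not tested. No scaling moved the median log2 fold change of all genes beyond 0.039, which was reached with library sizes alone. TMM and DESeq2 scaling hold this median near 0 by design, so it does not test the synthetase calls. Genes with few counts, such as GluRS-m, have wide intervals, so small changes in them could go uncalled at this depth.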
